A study of Homo sapiens with 6 samples.

Results

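Polyamines are small, positively charged molecules that growing cells make in bulk. A set of 10 genes was chosen by name for what they do, with earlier results of these data known: ODC1, AMD1, SRM and SMS, which build polyamines, AZIN1, OAZ1 and OAZ2, which set the stability of the first enzyme, and SAT1, SMOX and PAOX, which acetylate and oxidise polyamines. All 10 were found among the 26410 rows of a table of RNA-seq counts, and all 10 passed the filter on low counts. The cells were Kasumi-1, an established line from human acute myeloid leukaemia with the RUNX1::RUNX1T1 fusion. A group of 3 libraries (shPHF19) was from cells given a lentiviral hairpin against PHF19, an accessory subunit of Polycomb repressive complex 2, and the other 3 (Control) were from cells given a scrambled hairpin, although the treatment tag of the Control samples reads WT. Cells of both groups were selected in puromycin at 2 µg/ml, begun 48 h after the hairpin was delivered and held for at least 24 h. The vector described for the PHF19 hairpin also encodes GFP and puromycin resistance and was meant for stable silencing. The labels state neither how many hairpins were used nor whether the libraries came from separate cultures, so each p rests on differences among libraries that may be no more than technical.

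In the pathway, ODC1 (ornithine decarboxylase) turns ornithine into putrescine. AMD1 (S-adenosylmethionine decarboxylase) supplies the aminopropyl donor with which SRM (spermidine synthase) makes spermidine and SMS (spermine synthase) makes spermine. The antizymes OAZ1 and OAZ2 bind ornithine decarboxylase, send it to the proteasome and slow polyamine uptake, and their own translation needs a ribosomal frameshift that polyamines favour. AZIN1, a catalytically inactive relative of ornithine decarboxylase, binds antizyme and frees the enzyme. SAT1 (spermidine/spermine N-acetyltransferase) tags polyamines for export or for oxidation by PAOX, whereas SMOX oxidises spermine directly. ODC1 and SRM are long-known targets of MYC. Much of the control of ODC1, AMD1, SAT1 and the antizymes acts on translation and protein turnover, and the counts measure transcript alone.

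Total counts were 14663463 to 16615143 in shPHF19 and 14229878 to 15961787 in Control libraries. PHF19 transcript stood at 37.0 ± 4.04 CPM (counts scaled to a common library size with TMM factors; SD, n = 3) in shPHF19 and 185 ± 16.1 CPM (SD, n = 3) in Control libraries, without overlap. The 5 markers listed for this line were all present, at a summed 12411 to 13160 CPM in shPHF19 and 7678 to 7969 CPM in Control libraries, and did not move together. MPO, with 8394 CPM in shPHF19 and 4278 CPM in Control libraries, gave most of the difference in the sum, and CD34 and CD33 were also called higher. KIT was not called (log2 fold change 0.16), and RUNX1T1, the fusion partner, was called lower, with 146 CPM in shPHF19 and 188 CPM in Control libraries (-0.37, edgeR adjusted p = 0.000192). Lists of 3 markers each stood for other lineages. Those of T cells (3 of 3 tested) summed to 49.7 to 53.9 CPM in shPHF19 and 38.0 to 42.7 CPM in Control libraries, mostly from CD3D, while CD3E averaged 1.56 CPM in shPHF19 and 2.93 CPM in Control libraries. Those of epithelium (1 of 3 tested) summed to 80.4 to 95.1 CPM in shPHF19 and 52.5 to 67.8 CPM in Control libraries, nearly all from EPCAM. Those of B cells (2 of 3 tested) and fibroblasts (2 of 3 tested) stayed at or below 13.7 CPM and overlapped between groups, and those of red cells (0 of 3 tested) stayed below 1 CPM. Their part in the polyamine results was not tested. In bulk RNA, fewer cells of a kind and less transcript per cell cannot be told apart.

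The polyamine genes moved in opposite directions by arm. In shPHF19 libraries all 4 synthesis genes and both antizyme genes were higher, and the breakdown genes SAT1 and SMOX were lower. AZIN1 and PAOX did not pass the test. The call of SMS, the smallest change of the 4, was lost under some alternative settings given below. Of the 10 members, 6 were called higher and 2 lower at an adjusted p of 0.05 (edgeR quasi-likelihood test with Benjamini-Hochberg adjustment across the 13014 genes tested). Calls were common in these data: 60.2% of all tested genes were called, 29.4% higher and 30.9% lower. A change of at least 2-fold was less common, at 5.72% of genes higher and 10.9% lower, and 2 members (SRM and OAZ1) met it upward and 2 (SAT1 and SMOX) downward. The groups did not overlap for 9 of 10 members, against 63.5% of all tested genes. The median log2 fold change was 0.88 over the 4 synthesis genes and -1.29 over the 3 breakdown genes, beside -0.03 over all tested genes.

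**Figure D1:**
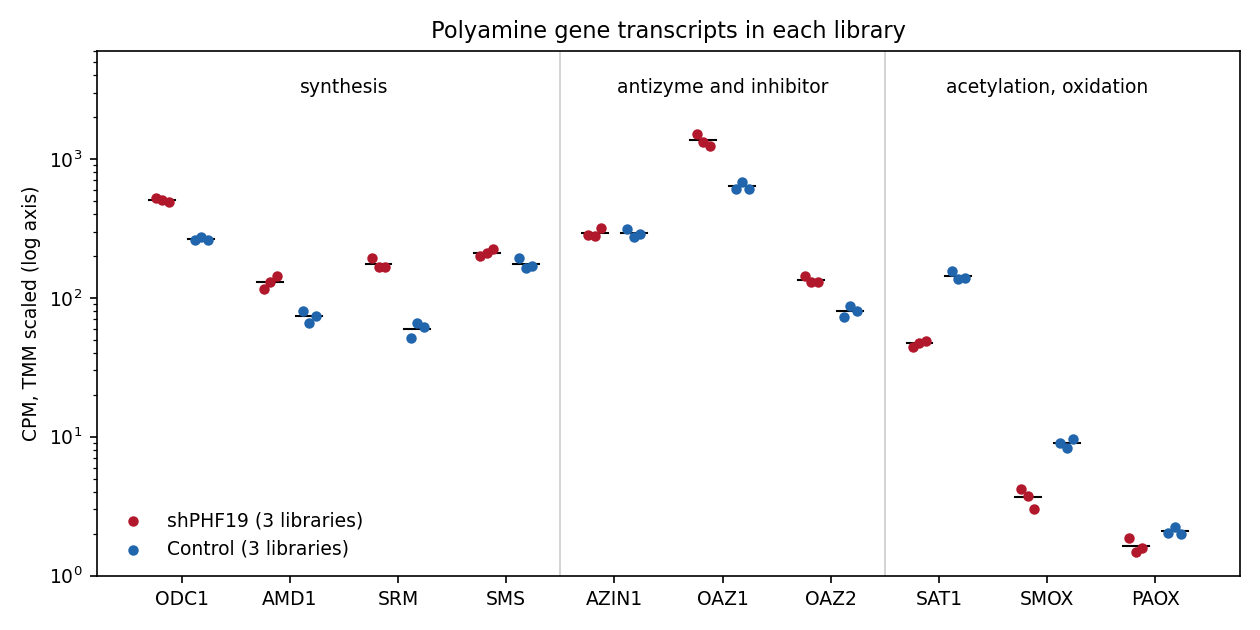
Transcript level of the 10 polyamine genes in each library, in CPM on a log axis. Each point is 1 library, red for shPHF19 and blue for Control, and the bars are means of 3. The groups are apart for every gene except AZIN1, for which both lie between 273 and 319 CPM.

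Of the synthesis genes SRM changed most. Its level was 192, 167 and 165 CPM in the shPHF19 libraries and 51.0, 65.5 and 61.4 CPM in the Control libraries. Every shPHF19 library was thus far above the highest Control library. SRM rose 2.94-fold (log2 fold change 1.56, SE 0.0949, edgeR adjusted p = 3.78e-19), and 99.0% of tested genes had a lower log2 fold change. The gene spans 11054584 to 11060024 of chromosome 1, minus strand, in GENCODE 29 (build GRCh38), which also gives the other gene positions.

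ODC1, the first enzyme of the pathway, stood at 525, 507 and 493 CPM in the shPHF19 libraries and 259, 273 and 260 CPM in the Control libraries. The 3 values within each group lay close together and the groups were far apart. ODC1 rose 1.93-fold (log2 fold change 0.95, SE 0.0802, edgeR adjusted p = 2.69e-14). The gene spans 10439968 to 10448504 of chromosome 2, minus strand.

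MYC and its partners bind the E-box CACGTG, so the start regions of the members were searched for it and for 4 other motifs on both strands. RefSeq windows (GRCh38.p14) were 300 bases long, with 250 before a transcript start and 50 from it. Those of 7 of the 10 members were searched, some with more than 1 start. AZIN1, SMOX and PAOX were not searched, so the motif results do not cover them. Of the 10 windows of these 7 members, those of AMD1 at chr6:110874535-110874834 and chr6:110874534-110874833 nearly coincide. The E-box was found in 2 of the 10, against 7.26% of all 35116 windows of that length. By gene it was in 2 of the 7 members, SRM and ODC1, against 8.77% of the 27305 genes with a window. Both were known targets of MYC beforehand, and the 27305 genes were not limited to those tested here. The shares are a description, and enrichment was not tested. AMD1, SMS, OAZ1 and OAZ2, which were also called higher, had no E-box in any window. The E-box reads the same on both strands, and it overlapped no match of the other motifs. Stretches of these windows are shown with the E-boxes in capitals, and the stretch just before the start of SAT1 is set beside them as a window with no match to any of the 5 motifs, chosen after its fold change was known.

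SRM, chr1:11060159-11060267, minus strand: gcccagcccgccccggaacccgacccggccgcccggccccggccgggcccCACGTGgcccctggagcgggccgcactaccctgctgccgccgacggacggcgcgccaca

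ODC1, chr2:10447997-10448072, minus strand: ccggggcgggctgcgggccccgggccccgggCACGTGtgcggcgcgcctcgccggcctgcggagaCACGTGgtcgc

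SAT1, chrX:23783063-23783172, plus strand: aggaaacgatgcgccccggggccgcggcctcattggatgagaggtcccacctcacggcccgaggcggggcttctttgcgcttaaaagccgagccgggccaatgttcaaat

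The E-box of SRM begins 199 bases before the start. The pair in ODC1 is separated by 28 bases and belongs to the second of its windows. None of the 76 bases shown for ODC1 lies in an exon of GENCODE 29, and they fall between the annotated exons of the gene. The GC box GGGCGG was in every member window searched except that of SAT1, and in 45% of all windows. The AP-1 motif TGANTCA was found once, in OAZ2, against 7.71% of all windows. The amino acid response core TGATGNAA and the CRE motif TGACGTCA were found in no member window searched and in 3.62% and 1.85% of all windows. A match is a run of letters, and binding was not measured here.

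AMD1, which supplies the aminopropyl donor, was at 115, 130 and 143 CPM in the shPHF19 libraries and 80.2, 66.1 and 74.2 CPM in the Control libraries. The groups were separate, with more spread among shPHF19 libraries than for ODC1. AMD1 rose 1.76-fold (log2 fold change 0.82, SE 0.0940, edgeR adjusted p = 2.49e-10). The gene spans 110874770 to 110895713 of chromosome 6, plus strand. GENCODE 29 holds 4 pseudogenes named after AMD1 and 2 named after SRM, none of them with a row in the count table, so reads of such copies could not be told apart here, and whether any were shared was not measured.

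SMS, the last step of synthesis, changed least of the 4. It was at 200, 209 and 226 CPM in the shPHF19 libraries and 194, 163 and 168 CPM in the Control libraries. The groups did not overlap, but the highest Control library came close to the lowest shPHF19 library. SMS rose 1.21-fold (log2 fold change 0.27, SE 0.0851, edgeR adjusted p = 0.00492). The call did not hold when libraries were scaled by their totals alone (log2 fold change 0.069, edgeR adjusted p = 0.489) or by upper-quartile factors (0.17, edgeR adjusted p = 0.0745), nor with the trend over gene length removed (0.17, limma-voom adjusted p = 0.0817). Its adjusted p lay between 0.000463 and 0.489 in the 15 alternatives (edgeR, limma-voom or DESeq2).

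Within a library the SRM to SMS count ratio does not depend on scaling. It was 0.960, 0.795 and 0.733 in the shPHF19 libraries and 0.264, 0.401 and 0.365 in the Control libraries. SRM had fewer counts than SMS in all 6 libraries, and the gap was narrower in every shPHF19 library. SRM made up 17.1 ± 1.35% of the counts of the 4 synthesis genes in shPHF19 and 10.4 ± 1.46% in Control libraries (SD, n = 3 each). The share of ODC1 was 49.6 ± 1.47% in shPHF19 and 46.2 ± 1.87% in Control libraries (SD, n = 3 each), and for that share the groups overlapped.

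**Figure D2:**
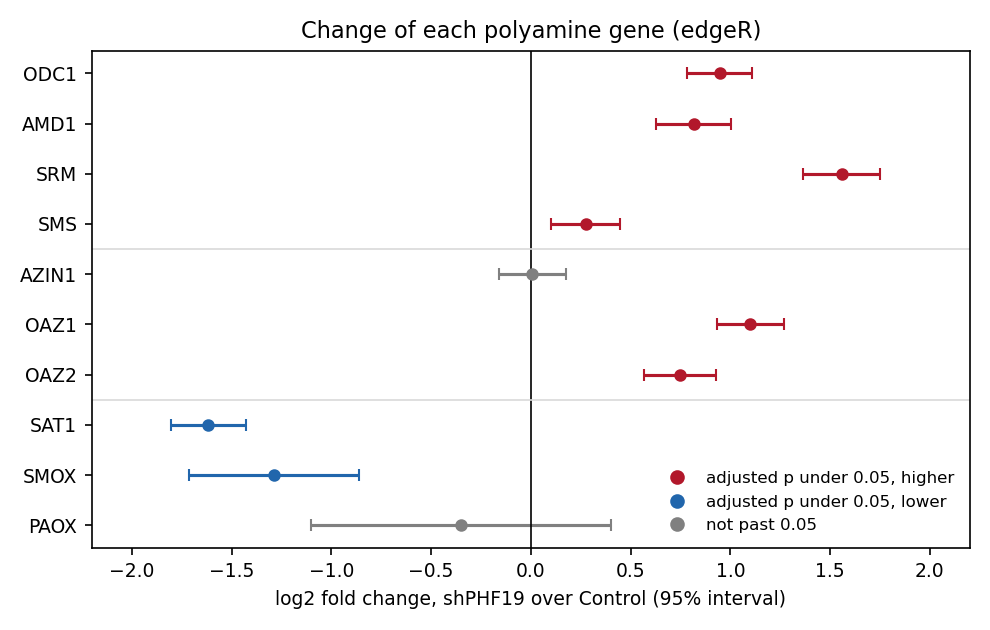
Log2 fold change of each polyamine gene, shPHF19 over Control, from the edgeR fit, with 95% intervals. Synthesis genes are at the top and breakdown genes at the bottom, and the intervals of AZIN1 and PAOX include 0.

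OAZ1 had the most counts of the 10 members and rose together with ODC1, whose protein the antizyme sends to the proteasome. Its level was 1506, 1332 and 1245 CPM in the shPHF19 libraries and 611, 685 and 608 CPM in the Control libraries. Even the lowest shPHF19 library was well above the highest Control library. OAZ1 rose 2.15-fold (log2 fold change 1.10, SE 0.0831, edgeR adjusted p = 6.24e-16). The gene spans 2269509 to 2273490 of chromosome 19, plus strand. Its exons share 236 bases with JSRP1 on the opposite strand, which holds 2 counts in all 6 libraries together, and 220 with AC005258.1, which has no row in the count table.

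OAZ2, the less abundant antizyme gene, was at 144, 130 and 129 CPM in the shPHF19 libraries and 72.6, 87.0 and 80.5 CPM in the Control libraries. It rose 1.68-fold (log2 fold change 0.75, SE 0.0904, edgeR adjusted p = 8.97e-10). The groups did not overlap. Of its exon bases 7.22% are shared with AC100830.3 on the opposite strand, which has no row in the count table. The OAZ2 to OAZ1 count ratio was 0.0958, 0.0974 and 0.104 in the shPHF19 libraries and 0.119, 0.127 and 0.133 in the Control libraries, so OAZ1 gained on OAZ2 in every shPHF19 library.

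AZIN1, which counteracts the antizymes, did not pass the test. It was at 282, 279 and 319 CPM in the shPHF19 libraries and 315, 273 and 287 CPM in the Control libraries. The groups overlapped. The log2 fold change was 0.01 with a 95% interval of -0.16 to 0.18 (edgeR adjusted p = 0.943). With library totals as the only scaling AZIN1 was called lower (-0.20, edgeR adjusted p = 0.0380; 0.0380 to 0.996 in the alternatives), and its sign also turned, without a call, with upper-quartile factors (-0.094). Of its exon bases 5.35% are shared with AZIN1-AS1 on the opposite strand, which holds 66 counts over the 6 libraries beside 26904 for AZIN1.

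The balance between inhibitor and antizyme transcripts differed between groups without any scaling. The AZIN1 to OAZ1 count ratio was 0.187, 0.209 and 0.256 in the shPHF19 libraries and 0.516, 0.399 and 0.472 in the Control libraries. All 3 shPHF19 libraries were below all 3 Control libraries, and the mean ratio was 2.12-fold lower. The ODC1 to OAZ1 ratio moved much less, at 0.349, 0.380 and 0.396 in the shPHF19 libraries and 0.423, 0.399 and 0.428 in the Control libraries. The groups stayed apart for that ratio by less than 0.01. These ratios are descriptions and were not tested.

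SAT1, the acetyltransferase that starts polyamine breakdown and export, fell most of the 10 members. Its level was 44.0, 47.6 and 49.2 CPM in the shPHF19 libraries and 156, 136 and 140 CPM in the Control libraries. The shPHF19 libraries lay close together and all far below the Control libraries. SAT1 was 3.07-fold lower (log2 fold change -1.62, SE 0.0933, edgeR adjusted p = 5.22e-20), and 4.78% of tested genes had a lower log2 fold change. The gene spans 23783173 to 23786226 of chromosome X, plus strand.

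SMOX, the spermine oxidase, had far fewer counts, at 57, 58 and 44 in the shPHF19 libraries and 146, 140 and 149 in the Control libraries. Scaled, these were 4.23, 3.76 and 3.03 CPM in shPHF19 and 8.98, 8.25 and 9.66 CPM in Control libraries. The groups did not overlap. SMOX was 2.44-fold lower (log2 fold change -1.29, SE 0.211, edgeR adjusted p = 9.12e-07). The gene spans 4120980 to 4187747 of chromosome 20, plus strand.

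PAOX, which oxidises acetylated polyamines, was the least abundant member, with 25, 23 and 23 counts in the shPHF19 libraries and 33, 38 and 31 counts in the Control libraries. In CPM it was at 1.86, 1.49 and 1.58 in shPHF19 and 2.03, 2.24 and 2.01 in Control libraries. The groups were apart by a narrow margin, but the difference did not pass the test (log2 fold change -0.35, 95% interval -1.10 to 0.40, edgeR adjusted p = 0.426). At this depth the interval runs from 0.465-fold to 1.32-fold of the Control level, so no direction could be told.

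Across arms, the mean log2 CPM of the 4 synthesis genes exceeded that of the 3 breakdown genes by 4.95, 5.07 and 5.18 in the shPHF19 libraries and by 3.07, 3.11 and 3.08 in the Control libraries. The gap was wider by 1.98 on the log2 scale in shPHF19 libraries, of which the synthesis genes gave 0.90 and the breakdown genes 1.08. In summed levels, the synthesis genes held 1033, 1012 and 1027 CPM in shPHF19 and 583, 568 and 564 CPM in Control libraries. The breakdown genes held 50.1, 52.9 and 53.8 CPM in shPHF19 and 167, 147 and 151 CPM in Control libraries, and SAT1 supplied 89.8 ± 1.81% of those counts in shPHF19 and 92.9 ± 0.562% in Control libraries (SD, n = 3 each). The ODC1 to SAT1 count ratio was 11.9, 10.6 and 10.0 in the shPHF19 libraries and 1.65, 2.00 and 1.86 in the Control libraries, a 5.91-fold difference of the means. The falls of SAT1 (log2 fold change -1.62) and SMOX (-1.29) were not separated by their count ratio. It was 10.4, 12.7 and 16.3 in shPHF19 and 17.4, 16.5 and 14.5 in Control libraries, with overlap. Since the members were chosen with results of these data known, no p is given for the arms.

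**Figure D3:**
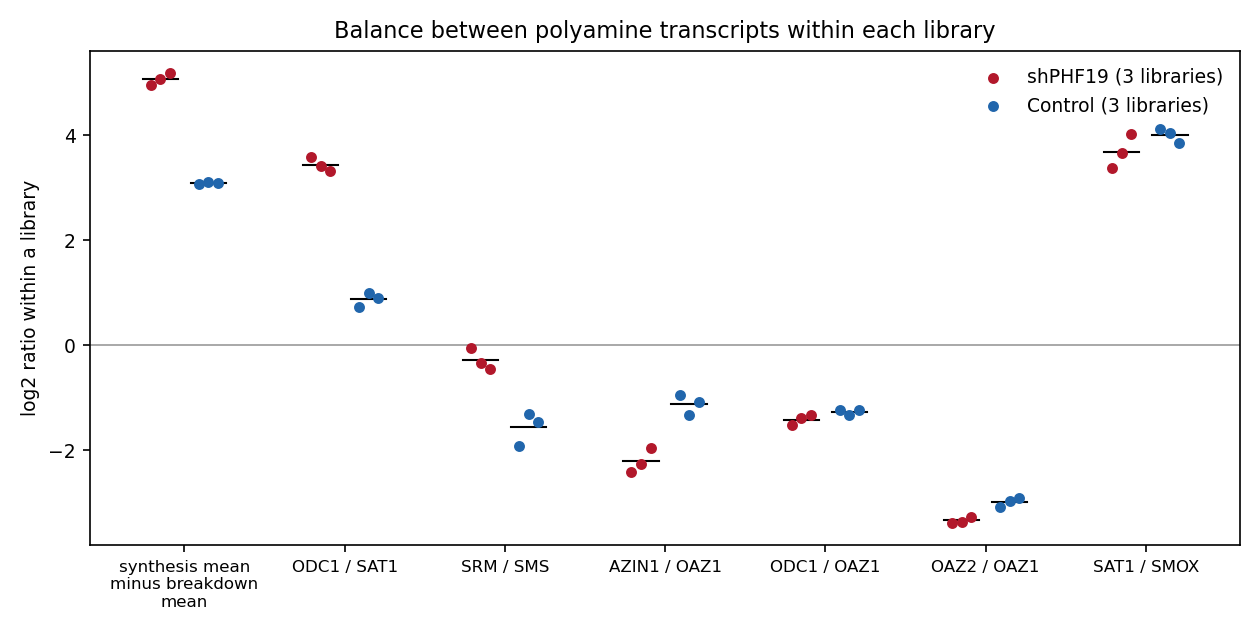
Balance between polyamine transcripts within each library, as log2 ratios (red, shPHF19; blue, Control; bars are means of 3 libraries). The first column is the mean log2 CPM of synthesis genes minus that of breakdown genes and the others are log2 count ratios. The groups overlap for SAT1 over SMOX and for no other column.

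The members differed widely in level. Per kilobase of merged exons, OAZ1 (396 ± 38.6 CPM per kb in shPHF19 and 185 ± 12.7 in Control libraries) and ODC1 (171 ± 5.49 in shPHF19 and 88.9 ± 2.68 in Control) led in both groups (SD, n = 3 each). In shPHF19 libraries SMS (98.0 CPM per kb) and SRM (92.1) followed with overlapping values, then AZIN1 (45.6), and then SAT1 (18.8), AMD1 (18.4) and OAZ2 (17.5), which overlapped. In Control libraries SMS (81.0 CPM per kb) overlapped ODC1, and SAT1 (57.7) and AZIN1 (45.4) stood above SRM (31.3), AMD1 (10.5) and OAZ2 (10.4), the last pair overlapping. SMOX (1.25 in shPHF19 and 3.04 in Control) and PAOX (0.722 in shPHF19 and 0.919 in Control) came last in both. The order depends on the length used: per kilobase of the principal transcript SAT1 ranked 7 of 10 in shPHF19 and 2 of 10 in Control libraries, in place of 6 in shPHF19 and 4 in Control libraries per kilobase of merged exons, where the merged exons are 2498 bases for SAT1 and its principal transcript 1065.

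The authors' deposited table lists 7 of the 10 members. It gives log2 fold changes of 1.57 for SRM, 0.96 for ODC1, 0.82 for AMD1, 1.11 for OAZ1, 0.76 for OAZ2, -1.59 for SAT1 and -1.19 for SMOX. SMS, AZIN1 and PAOX are not among its 5740 genes, whose adjusted p goes up to 0.00993 and whose log2 fold changes are no smaller than 0.32 in size.

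Genes that feed, use or carry polyamines were examined in 5 lists with 30 genes, of which 24 passed the filter. Of these 24, 15 rose and 5 fell, with a median log2 fold change of 0.36. The lists were drawn up from textbook roles, with earlier results of these data known. Again 60.2% of all genes were called, so a share of called genes alone says little about a list.

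Of 6 tested genes of ornithine or putrescine supply 4 rose and 2 did not pass. ALDH18A1, which makes the precursor of ornithine and proline from glutamate, averaged 187 ± 8.22 CPM in shPHF19 and 98.8 ± 10.6 CPM in Control libraries (log2 fold change 0.92). SLC25A15, the mitochondrial ornithine carrier, averaged 41.6 ± 2.60 CPM in shPHF19 and 21.1 ± 0.760 CPM in Control libraries (0.98), and AGMAT, named as an agmatinase, averaged 23.1 ± 0.269 CPM in shPHF19 and 11.6 ± 0.591 CPM in Control libraries (0.99; SD, n = 3 each). OAT, ornithine aminotransferase, rose by less (0.36). The arginase gene ARG2 (0.04) and the arginine importer SLC7A1 (-0.08) did not pass, and SLC7A1 was called lower with library totals as the only scaling (-0.28, edgeR adjusted p = 0.00301; up to 0.96 in the alternatives). ARG1 (5 counts in shPHF19 and 7 in Control libraries) and OTC (0 counts in shPHF19 and 1 in Control libraries) were not tested.

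Of 9 genes that make S-adenosylmethionine or recycle its by-products 7 rose, 1 fell and 1 did not pass. MAT2A, which makes S-adenosylmethionine, rose (log2 fold change 0.88). It was at 597, 567 and 581 CPM in the shPHF19 libraries and 332, 305 and 311 CPM in the Control libraries. ADI1 (0.95) and MRI1 (0.78), which act in the salvage of methylthioadenosine, and AHCY (0.81), which hydrolyses S-adenosylhomocysteine, rose too. So did ENOPH1 (0.36) and MAT2B (0.34). MAT1A rose as well (1.39, SE 0.360), but at a low level, with 3.14 CPM in shPHF19 and 1.19 CPM in Control libraries. MTAP, the enzyme that cleaves the methylthioadenosine released by spermidine and spermine synthesis, was the gene that fell. It was at 25.1, 24.2 and 29.7 CPM in the shPHF19 libraries and 37.5, 30.4 and 39.9 CPM in the Control libraries. The groups were less than 1 CPM apart at their nearest, and the log2 fold change was -0.45 (SE 0.123, edgeR adjusted p = 0.00165). The salvage gene APIP (0.10) did not pass.

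Spermidine is used to make hypusine, a modified lysine of the translation factor EIF5A. EIF5A averaged 496 ± 46.6 CPM in shPHF19 and 179 ± 12.5 CPM in Control libraries (SD, n = 3 each; log2 fold change 1.47, SE 0.0859, edgeR adjusted p = 8.23e-20), and it has near-identical copies that may share its reads. Its paralog EIF5A2 moved the other way, at 11.4 ± 0.881 CPM in shPHF19 and 18.9 ± 3.74 CPM in Control libraries (SD, n = 3 each; -0.73). Of the modifying enzymes DOHH rose (0.59), and DHPS, which takes the aminobutyl group from spermidine, did not pass (0.18, edgeR adjusted p = 0.11). DHPS was called higher without shPHF19 replicate 3 (0.26, edgeR adjusted p = 0.0218) or without Control replicate 2 (0.27, edgeR adjusted p = 0.0299), and its adjusted p over the alternatives reached 0.822.

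Of 3 tested transport genes 2 rose and 1 fell. ATP13A2, which exports polyamines from lysosomes, rose (log2 fold change 0.70), as did its relative ATP13A3 (0.26), whose call was lost without Control replicate 2 (0.21, edgeR adjusted p = 0.0607), with upper-quartile factors (0.16, edgeR adjusted p = 0.11) and with library totals alone (0.054, edgeR adjusted p = 0.603; from 7.49e-05 over the alternatives). SLC3A2, the heavy chain of amino acid exchangers, fell to 222 ± 17.6 CPM in shPHF19 libraries, against 489 ± 40.9 CPM in Control libraries (SD, n = 3 each; -1.14). ATP13A4 (11 counts in shPHF19 and 56 in Control libraries) and SLC18B1 (8 counts in shPHF19 and 7 in Control libraries) were not tested. Of the further antizyme, inhibitor, oxidase and acetyltransferase genes, OAZ3 (-0.84) and the acetyltransferase gene SAT2 (-0.35) fell. AZIN2 (1 count in shPHF19 and 19 in Control libraries) and AOC1 (40 counts in shPHF19 and 29 in Control libraries) were not tested. OAZ3 lost its call without shPHF19 replicate 1 (edgeR adjusted p = 0.0622) or Control replicate 3 (edgeR adjusted p = 0.113), and SAT2 lost its call in 6 of 15 alternatives, with adjusted p-values from 0.00169 to 0.298 (edgeR, limma-voom or DESeq2), and its groups overlapped.

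**Figure D4:**
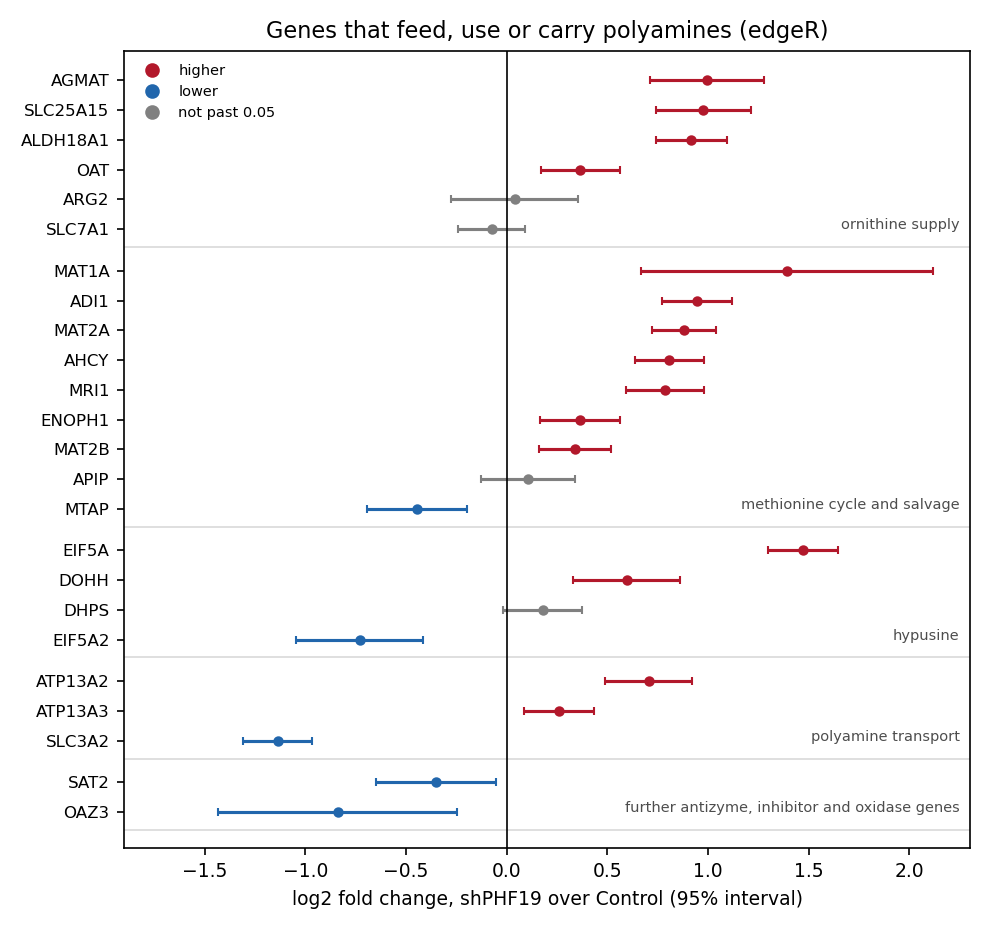
Log2 fold change, shPHF19 over Control, of the 24 tested genes of 5 neighbouring lists, with 95% intervals (edgeR; red, called higher; blue, called lower; grey, not called at an adjusted p of 0.05). The first 2 lists hold 11 genes called higher and 1, MTAP, called lower among 15, and the other 3 lists hold 4 called higher and 4 called lower among 9. Of all tested genes 29.4% were called higher and 30.9% lower.

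**Figure D5:**
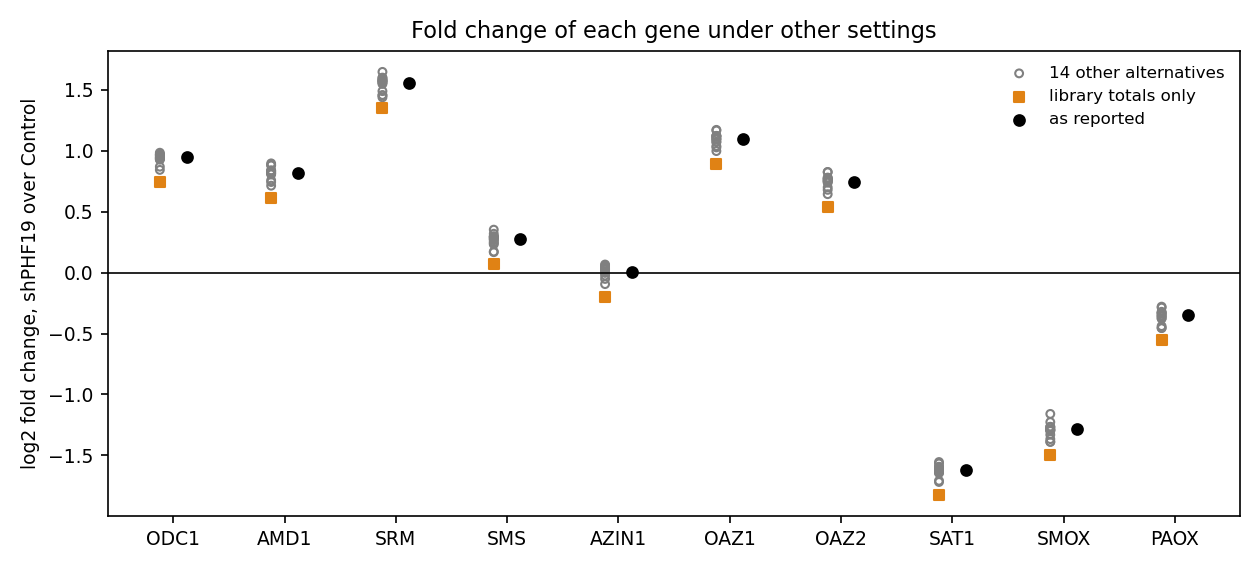
Log2 fold change of each polyamine gene as reported (black) and under 15 alternatives, of which scaling by library totals alone is marked in orange. Totals alone shift every gene down, to 0.069 for SMS and -0.20 for AZIN1, and under totals alone AZIN1 is the one gene of the 10 to change its side of 0.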

How the data were processed

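The authors deposited whole-number counts per gene symbol for 6 libraries, not normalized. Per the labels' protocols RNA was taken up in TRIzol and libraries were made with a KAPA Hyper Prep kit. The build hg38 and the tools HTSeq 0.11.2 and HISAT2 2.1.0 are named in the submitters' processing notes. Annotation and strand setting: not given in the sources used here. A deposited table of the authors' own comparison holds a mean normalized signal, log2 fold changes and p-values.

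Genes were tested on these counts in R 4.3.3 with edgeR 4.0.16 (filterByExpr, TMM, glmQLFit and glmQLFTest, robust; group as the only term), with Benjamini-Hochberg adjustment over the 13014 genes left and a threshold of 0.05. Intervals of 95% are the log2 fold change and its SE times the t quantile. Log2 CPM of the arms used a prior count of 0.5. Alternatives used limma 3.58.1 and DESeq2 1.42.0. The fit was checked on counts simulated with few changed genes, balanced in direction, so that check does not cover the scaling here. At these depths 3 counts correspond to 0.177 to 0.223 CPM. Libraries of a group differed beyond counting noise, at 4.78 to 12.4 chi-square units per degree of freedom. Lengths and positions came from GENCODE 29, matched by symbol for 94.0% of tested genes, and start regions from RefSeq.

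All 10 members and PHF19 are named. Of each neighbouring list up to 4 genes with the smallest adjusted p are named, plus those needed to account for counts of 5 or fewer. MAT1A, ENOPH1 and MAT2B are named besides. The members and lists were chosen with earlier results of these data known.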

Additional observations from a re-analysis of the deposited data

How the results depend on the processing

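Each member's log2 fold change was recomputed under 15 alternatives. ODC1, AMD1, SRM, OAZ1, OAZ2, SAT1 and SMOX kept their direction and call in all of them, and PAOX its direction without a call. With library totals alone the values were 0.069 for SMS (call lost), -0.20 for AZIN1, -0.16 for ARG2, -0.099 for APIP and -0.027 for DHPS (signs turned), and OAT (0.16), MAT2B (0.14) and ENOPH1 (0.16) lost their calls. With upper-quartile factors they were 0.17 for SMS (call lost), -0.094 for AZIN1 and -0.062 for ARG2 (signs turned). With the length trend removed they were 0.17 for SMS (call lost), -0.066 for ARG2 and 0.0052 for SLC7A1 (signs turned), and with a filter of 1 CPM in 3 libraries AZIN1 was at -0.0012. With 1 library left out, AZIN1 ran from -0.052 to 0.066, ARG2 from -0.058 to 0.18, APIP from -0.046 to 0.24, SMS from 0.23 to 0.35, and 3 (without Control replicate 3) to 6 neighbouring genes were called lower. Library totals alone gave 2590 genes higher and 5624 lower, in place of 3820 higher and 4015 lower, with a median over all genes of -0.24; upper-quartile factors gave 3190 higher and 4778 lower and a median of -0.14, beside -0.03. The gap between the arms was 2.41 from summed CPM, in place of 1.98. The cause of these changes was not tested.

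Replicate numbers gave no sign of pairing the libraries: deviations from group means correlated at -0.16, -0.01 and -0.05 between libraries of the same number. Between libraries of different numbers the correlations ran from -0.13 to 0.17. With the number as a replicate block, 6 members were higher and 2 lower, and 3555 genes were higher and 3752 lower.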

Other observations

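Within a group the members did not all vary together between libraries. Of the shPHF19 libraries, replicate 1 had the highest level of ODC1, SRM, OAZ1, OAZ2, SMOX and PAOX and the lowest of AMD1, SMS and SAT1. Of the Control libraries, replicate 1 had the highest level of AMD1, SMS, AZIN1 and SAT1 and the lowest of ODC1, SRM and OAZ2. SRM and AMD1, both higher in shPHF19 than in Control libraries, had their highest and lowest libraries the other way round in each group. SRM was highest in shPHF19 replicate 1 (192 CPM), where AMD1 was lowest (115 CPM), and lowest in Control replicate 1 (51.0 CPM), where AMD1 was highest (80.2 CPM). With 3 libraries a group this was not tested.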
